A study of Arabidopsis thaliana with 60 samples.

Results

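A set of 150 nuclear genes was followed whose transcripts rose and fell again within 8 h of leaf infiltration in Arabidopsis plants that made no MLACC. MLACC is a signalling fragment of an intracellular immune receptor of barley, and its synthesis was switched on by dexamethasone. The 150 members were selected from 32399 nuclear gene rows on their measured counts in the 18 control libraries of 0, 2 and 8 h. Counts were scaled to a common total of reads on genes (CPM, counts per 1e6) and averaged over 3 libraries, and in each of 2 control lines the log2 ratio of 2 h to 0 h and of 2 h to 8 h was taken after adding 1 CPM. The lowest of the 4 ratios was the score, and the 150 genes with the highest score were the members. Their rise and fall in the controls is therefore what they were chosen for and is described without a test.

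The series held 60 poly(A) RNA libraries, 3 for each of 4 lines at 0, 2, 4, 6 and 8 h after infiltration. Leaves of 4-week-old plants were infiltrated by syringe with 1 µM dexamethasone, and discs from 6 plants made up each sample. The lines were Col-0 DEXp:mYFP, which made the fluorescent protein alone (mYFP line), Col-0 DEXp:MLACC-mYFP (wild-type MLACC line), the sextuple mutant ppsdes without a transgene (ppsdes control), and ppsdes with DEXp:MLACC-mYFP (ppsdes MLACC line). The mutant ppsdes carries dde2-2 (jasmonate synthesis), ein2-1 (ethylene signalling), sid2-2 (salicylic acid synthesis), pad4-1 and sag101-2 (immune signalling partners) and pen2-1 (a glucosinolate-hydrolysing enzyme of pathogen defence). All 4 lines received dexamethasone, and no library after 0 h came from leaves that were not infiltrated, so the times after 0 h hold infiltration, dexamethasone and time of day together. The wild-type control carried an inducible transgene and the ppsdes control did not. The 2 MLACC lines came from separate transformations, and the files hold no measure of the MLACC protein, which the study describes as less abundant in the mutant. Unlike amounts of MLACC and the effect of the 6 mutations therefore cannot be told apart in any difference between the backgrounds. Beside every result it applies that in bulk leaf discs fewer cells of a type and less RNA per cell cannot be told apart.

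Touching, cutting or flooding a leaf releases calcium and reactive oxygen signals within minutes and induces receptor kinases, transcription factors of the WRKY, zinc finger and ERF families and jasmonate synthesis, whose transcripts decay again within hours. Pattern-recognition receptors at the cell surface and intracellular receptors of the NLR class induce many of the same genes during immunity, for longer in the case of NLR receptors. A clock-controlled gene with a daytime peak can also show a rise and fall over 8 h.

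The member with the highest score was AT1G51820, a leucine-rich repeat receptor kinase, at 6.61. Behind it came LECRKA4.1, a lectin receptor kinase, at 5.66, IOS1, a leucine-rich repeat kinase of immune signalling, at 5.51, and MLO12, a membrane protein of powdery mildew susceptibility, at 5.4. AT2G27660, a cysteine- and histidine-rich C1 domain protein, reached 5.08, PP2-A5, a phloem protein, 4.89, AT5G39580, a peroxidase, 4.52, and MC8, a metacaspase (a cysteine protease of plants), 4.46. The peroxidase AT5G64120 (4.37), the PLAC8 family protein AT1G52200 (4.24), the berberine bridge enzyme AT1G30720 (4.07) and the UDP-glycosyltransferase AT1G05675 (4.07) completed the 12 highest. The scores at the edge of the set differed little. The last members were AT1G17860 (a Kunitz trypsin inhibitor) at 2.04, AT1G36622 at 2.04, AT4G11521 (a receptor-like kinase-related protein) at 2.03, AT5G44575 at 2.03 and WRKY47 at 2.02. The first genes outside were AT1G66920 at 2.02, EXO70H1 (an exocyst subunit) at 2.02, AT1G55450 at 2.01, LHT1 (an amino acid transporter) at 2.01 and ABCB14 (an ABC transporter) at 2.01.

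By their RefSeq product names, 18 members (12%) were kinases, against 4.98% of the 27444 protein-coding genes, and 10 (6.67%) were WRKY proteins, against 0.266%. Berberine bridge enzymes made up 4 members (2.67% against 0.0984%), calcium-binding proteins 4 (2.67% against 0.926%), transporters 7 (4.67% against 1.92%) and ubiquitin ligase or F-box proteins 9 (6% against 5.01%). These shares are a description, and none was tested. In the RefSeq TAIR10.1 genome, 23 members lay in 9 groups of neighbours in which each had another member at most 3 protein-coding genes away in gene order. AT1G51790, IOS1 and AT1G51820 lay within chr1:19206615-19241965, the berberine bridge enzymes AT1G30700, AT1G30720 and AT1G30730 with AT1G30755 within chr1:10892445-10909760, and the kinases B120, CRK28 and CRK29 within chr4:11394295-11405235. Reads that matched near-identical copies such as neighbouring kinases or IGMT2 and IGMT3 could be split or lost in counting, so the levels of such members are uncertain.

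The 250 bases before the gene start of each member were read from the RefSeq TAIR10.1 genome. The letters TTGAC, the core of the W box that WRKY proteins bind, were found on either strand in 109 member promoters (72.7%), against 44.9% of all 27437 promoters of the same length, with a mean of 1.54 against 0.63 matches per promoter. CGCGTT, the core of an element of rapid stress responses that CAMTA proteins bind, was found in 9 members (6%) against 2.59%, and both motifs together in 8 (5.33%) against 1.23%. The shorter CGCG was found in 32 members (21.3%) against 10.1%. GCCGCC, the ERF element, was found in 5.33% against 1.87%, and GAANNTTC, part of the heat shock element, in 18.7% against 9.55%. The evening element AAATATCT of clock genes was found in 5.33% against 4.79%, CACGTG in 5.33% against 6.49% and CCGAC in 10.7% against 12%. ACGTG was found in 28% against 22.9%, AAACCCTA in 2.67% against 4.49% and GGGCC in 8% against 16.2%. GC content was 31.2% in both sets. A match is a description of letters and not a site. The promoters of 3 of the 12 members with the highest scores are shown because they hold TTGAC alone or TTGAC with CGCGTT. Capitals mark each match to TTGAC or CGCGTT on either strand (GTCAA and AACGCG are the reverse complements), each line runs 5′ to 3′ on the gene's strand, and matches of CGCGTT on opposite strands can overlap each other or a TTGAC match.
AT1G51820, chr1:19241966-19242215, minus strand: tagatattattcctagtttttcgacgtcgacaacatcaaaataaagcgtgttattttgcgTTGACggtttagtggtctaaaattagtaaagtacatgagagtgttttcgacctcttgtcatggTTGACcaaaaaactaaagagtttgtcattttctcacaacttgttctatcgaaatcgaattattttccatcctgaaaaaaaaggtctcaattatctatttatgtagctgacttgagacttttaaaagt
AT2G27660, chr2:11800929-11801178, minus strand: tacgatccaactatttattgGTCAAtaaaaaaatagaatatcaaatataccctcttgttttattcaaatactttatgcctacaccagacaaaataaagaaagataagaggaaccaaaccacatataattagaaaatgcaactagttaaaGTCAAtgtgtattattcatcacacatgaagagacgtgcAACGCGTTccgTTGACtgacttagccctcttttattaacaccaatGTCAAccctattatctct
AT5G39580, chr5:15849142-15849391, minus strand: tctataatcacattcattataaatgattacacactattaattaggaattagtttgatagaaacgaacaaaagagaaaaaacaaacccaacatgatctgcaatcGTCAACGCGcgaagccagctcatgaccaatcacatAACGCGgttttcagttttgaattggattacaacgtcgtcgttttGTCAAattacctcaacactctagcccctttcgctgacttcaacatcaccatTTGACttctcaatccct
The AT1G51820 promoter held 2 TTGAC matches and no CGCGTT. That of AT2G27660 held 4 TTGAC and 2 CGCGTT matches, and that of AT5G39580 3 and 2. Of the members that were higher with MLACC than with mYFP at 6 h, 73.5% of 117 held TTGAC, against 69.7% of the 33 others.

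Total counts on genes, in units of 1e6 reads, ran from 18.2 to 25.8 in wild-type libraries and from 14.1 to 26.0 in ppsdes libraries. By the levels of 14 clock genes each of the 60 libraries lay closest to its own time point. Markers of mesophyll, epidermis, guard cells and vasculature, 4 genes each, were detected in every line, as the label leaf requires, and a root list summed to 12.5 to 67.7 CPM. For the members themselves, however, 5 libraries stood apart from the other libraries of their group by over 1.5 on the log2 scale of their mean member level. These were replicate 3 of the mYFP line at 2 h (mean log2(CPM + 1) of 2.78 over the 150 members, 2.43 below the nearest replicate), replicate 1 of the ppsdes control at 2 h (3.21, 1.94 below), replicate 1 of the ppsdes MLACC line at 2 h (3.23, 1.57 below), replicate 3 of the mYFP line at 4 h (4.85, 1.52 above) and replicate 2 of the ppsdes control at 4 h (4.52, 1.77 above). They were picked after the data were seen, on the level of the members. Of these 5, the rule used 2, and applied without them it took 137 of the same 150 genes (91.3%). Counts of members called are given below with and without them. Counts over gene lists, of unadjusted p values under 0.05, of peak times and of group means more than 1 log2 unit apart are given over all libraries. The shares of all genes called are those of the fits with all libraries.

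**Figure D1:**
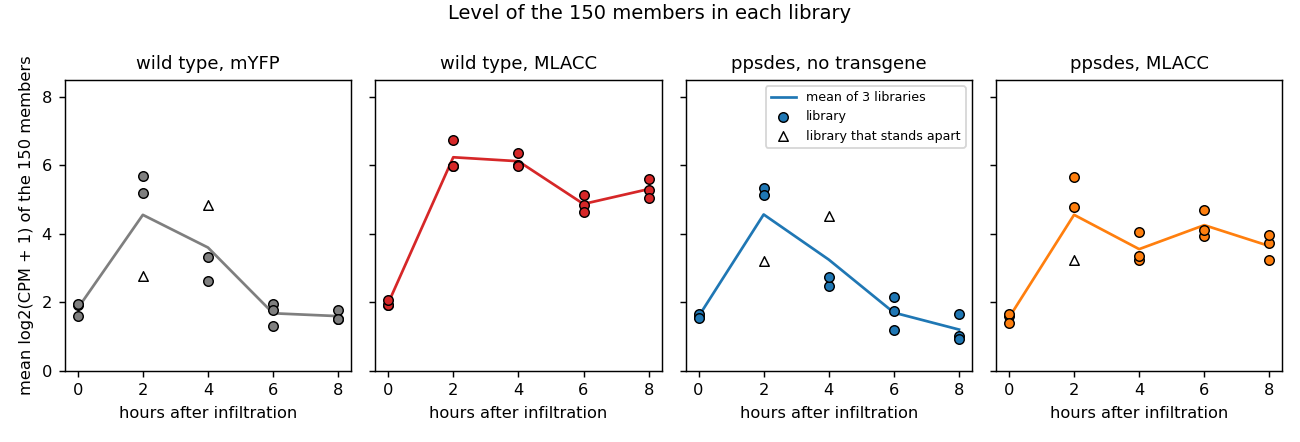
Mean log2(CPM + 1) of the 150 members in each library (points) and group means over 3 libraries (lines) against hours after infiltration, with the 5 libraries that stand apart as triangles. The controls return to 1.60 and 1.20 at 8 h, and the MLACC lines stand at 5.31 and 3.64.

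The members moved together within groups. At 2 h, replicate 3 of the mYFP line was the lowest library for all but 4 of the 150 members, replicate 1 of the ppsdes control for 137 and replicate 1 of the ppsdes MLACC line for 131. The median member differed by 2.95, 2.22 and 2.77 log2 units between the highest and the lowest library of these groups, and by 1.05 in the wild-type MLACC line. When each library's deviation from its group mean was correlated with the mean deviation of the other members over the 60 libraries, the median r was 0.88 (range −0.45 to 0.97), and 131 members were over 0.5. Over 17372 genes the median was −0.07, and 11.4% were over 0.5. Without the 5 libraries the median was 0.80, 130 members were over 0.5 and 9.9% of all genes were. These correlations share libraries and depth and are a description. They include the 18 control libraries on which the rule chose the members, so a common level in those libraries can follow in part from the rule. The correlation over the other libraries alone was not computed. The members least like the rest were AT3G09450, a protein of the fusaric acid resistance family (−0.45), AT1G20070 (−0.19), AT2G15020 (−0.10), the NGATHA transcription factor NGA3 (−0.09) and the clock gene PRR9 (0.02).

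In the controls the mean member level in log2(CPM + 1) was 1.82 ± 0.185 (SD, n = 3) at 0 h, 4.55 ± 1.55 at 2 h, 3.60 ± 1.14 at 4 h, 1.68 ± 0.337 at 6 h and 1.60 ± 0.144 at 8 h in the mYFP line. The ppsdes control stood at 1.59 ± 0.062, 4.57 ± 1.18, 3.25 ± 1.11, 1.70 ± 0.475 and 1.20 ± 0.388. The members thus rose and fell in both controls, which the rule required of them at 0, 2 and 8 h. Their highest group mean was at 2 h for 133 members and at 4 h for 17 in the mYFP line, and for 128 and 22 in the ppsdes control.

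AT1G51820 shows the range. In the mYFP line its 3 libraries stood at 0.531, 0.220 and 1.43 CPM at 0 h, 173, 321 and 8.52 at 2 h, 34.4, 2.17 and 127 at 4 h, 1.15, 0.364 and 0.137 at 6 h and 0.136, 0.0927 and 0.206 at 8 h. In the ppsdes control they stood at 0.0883, 0.263 and 0.354 CPM at 0 h, 21.3, 268 and 219 at 2 h, 5.20, 117 and 5.57 at 4 h, 0.282, 0.697 and 0.514 at 6 h and 0 in all 3 at 8 h. The libraries of 2 h were above all those of 0, 6 and 8 h in either line, and the 4 h libraries spread over the whole range between. MLO12 stood at 92.2, 240 and 3.18 CPM at 2 h and 2.13, 1.53 and 1.34 CPM at 8 h in the mYFP line, the low value at 2 h being that of replicate 3. WRKY33, a transcription factor that directs camalexin synthesis, stood at 36.0, 15.9 and 20.5 CPM at 0 h, 262, 247 and 18 at 2 h and 25.4, 8.90 and 6.37 at 8 h in that line, so that replicate 3 at 2 h was within the range of 0 h.

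The control libraries of 4 and 6 h were not used by the rule. The rule did require a fall between 2 and 8 h in both lines, however. A fall from 4 to 6 h can therefore follow in part from the rule. All genes, whose shares are given beside the counts, were not chosen for a fall. From 4 to 6 h the mYFP line had 41 members lower and 0 higher, by the criterion used throughout, an adjusted p under 0.01 and a log2 change over 1 in edgeR's quasi-likelihood test with Benjamini-Hochberg adjustment over all genes tested. Of all 19654 genes, 0.86% were lower and 0.794% higher. The median member changed by −3.11 on the log2 scale, against 0.02 over all genes. In the ppsdes control 47 members were lower and 0 higher (2.4% and 1.68% of all 19216 genes), with a median of −2.32 against −0.03. These counts rest on few libraries. In the mYFP line 6 members were lower without replicate 3 of 4 h, 77 without replicate 2 of 4 h, and 16, 7 and 1 without replicates 1, 2 and 3 of 6 h. In the ppsdes control 7 were lower without replicate 2 of 4 h and 11, 18 and 18 without replicates 1, 2 and 3 of 6 h. With the 5 libraries left out the counts were 34 and 18.

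PP2-A5 fell in the ppsdes control from 37.9, 262 and 149 CPM at 4 h to 0.891, 2.87 and 2.16 CPM at 6 h. The log2 change was −6.16 ± 0.78 (SE, n = 3 and 3, adjusted p = 1.16e-05), and the libraries did not overlap. GH3.3, an enzyme that joins auxin to amino acids, fell in the same comparison by 5.61 ± 1.01 (adjusted p = 0.000707), and both calls held with any library left out. In the mYFP line MC8 fell by 7.67 ± 1.57 (adjusted p = 0.00406) and AT5G39580 by 7.56 ± 1.62 (adjusted p = 0.00575). Both of these calls were lost without replicate 3 of 4 h and without any 1 of the 3 replicates of 6 h. ACS7, an enzyme of ethylene synthesis, stood at 3.73, 0.258 and 44.8 CPM at 4 h and at 0.0442, 0 and 0 at 6 h in the mYFP line.

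**Figure D2:**
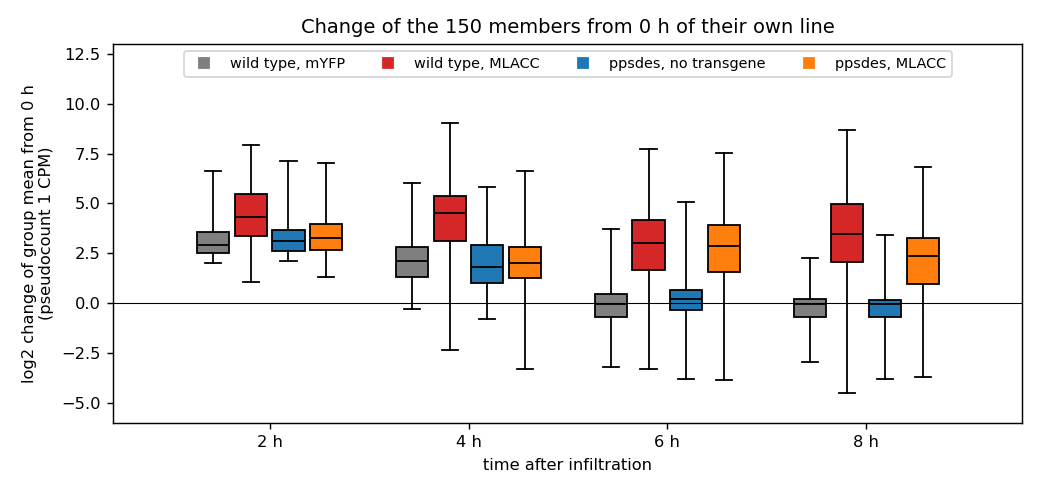
Log2 change of group mean CPM (+ 1) from 0 h of the same line for the 150 members at 2, 4, 6 and 8 h (box: quartiles and median, whiskers: lowest and highest member). The medians of the controls are −0.05 and 0.19 at 6 h, those of the MLACC lines 3.04 and 2.89.

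No library of the MLACC lines entered the rule, but the control libraries that did share the estimate of the spread in each fit. The change from 0 to 2 h within an MLACC line holds infiltration and MLACC together. By the rule, the same members rose over this time in both controls. In wild type with MLACC 147 members were higher at 2 h than at 0 h and 0 were lower, against 13.6% and 5.46% of all genes tested. The median member rose by 5.09 on the log2 scale (quartiles 3.91 and 6.78) and the median gene by 0.03. The 3 members not called were AT2G15020, an uncharacterized protein, AT4G21870, an HSP20-like chaperone, and MIOX2, a myo-inositol oxygenase. In ppsdes with MLACC 135 members were higher and 0 lower (9.21% and 5.17% of all genes), with a median of 4.17 against 0.05. Without the 5 libraries that stand apart, 147 and 148 members were called, and without any 1 library between 99 and 143. Fitted on the libraries of the comparison alone, the ppsdes count was 24.

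JAZ1, a repressor of jasmonate signalling, rose in the wild-type MLACC line from 4.97, 10.8 and 8.75 CPM at 0 h to 750, 571 and 439 CPM at 2 h. The log2 change was 6.16 ± 0.67 (adjusted p = 2.3e-07). In ppsdes it rose from 2.35, 1.55 and 2.99 CPM to 14.4, 94.4 and 36.6 CPM, by 4.19 ± 0.68 (adjusted p = 5.44e-05). The groups did not overlap in either line. AT1G51820 rose to 523, 241 and 303 CPM in wild type, by 9.50 ± 1.41 (adjusted p = 1.1e-05), and to 8.39, 205 and 132 CPM in ppsdes, by 9.15 ± 1.52 (adjusted p = 8.71e-05). MLO12 rose by 8.08 ± 1.42 (adjusted p = 7.81e-05) and 7.64 ± 1.55 (adjusted p = 0.000484). For these receptor-like and membrane proteins the 2 h level in wild type with MLACC overlapped that of the mYFP line.

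Some members had no read at 0 h, so that their change has only a lower bound, set against 3 counts over the group. AT1G36622, an uncharacterized protein, stood at 22.5, 11.8 and 19.7 CPM at 2 h in the wild-type MLACC line, at least 383-fold higher. In the ppsdes MLACC line AT3G01830, a calcium-binding EF-hand protein, stood at 0.962, 30.9 and 5.42 CPM at 2 h, at least 293-fold higher. SDR5, a short-chain dehydrogenase, reached 1.18, 23.5 and 5.95 CPM in that line, at least 239-fold higher. CYP706A2, a cytochrome P450, rose in wild type from 0.151, 0.172 and 0.228 CPM to 222, 131 and 95.8 CPM, by 9.63 ± 1.23 (adjusted p = 1.83e-06). IOS1 rose in ppsdes from 0.0427, 0.141 and 0 CPM to 4.46, 158 and 21.8 CPM, by 9.75 ± 1.85 (adjusted p = 0.000252), the lowest 2 h value being that of replicate 1, which stands apart.

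**Figure D3:**
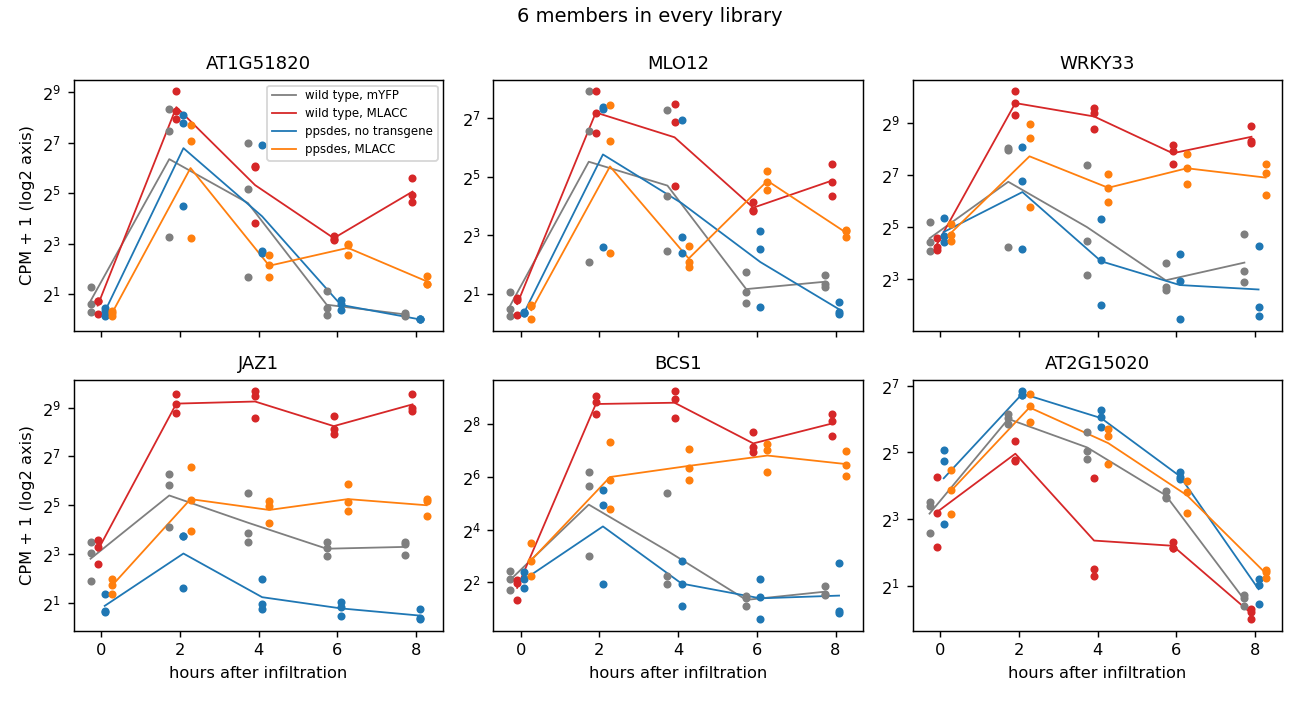
CPM + 1 on a log2 axis of 6 members in every library (points) with geometric group means of CPM + 1 (lines) against hours after infiltration. WRKY33, JAZ1 and BCS1 stay high with MLACC in wild type from 4 to 8 h, while AT2G15020 falls in all 4 lines. In ppsdes with MLACC, WRKY33 at 8 h was not called against 0 h by edgeR (1.91 ± 0.93, adjusted p = 0.0809).

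In the mean over members, the MLACC lines stayed above their starting level to 8 h. The mean member level of the wild-type MLACC line was 1.97 ± 0.087 at 0 h, 6.24 ± 0.437 at 2 h, 6.12 ± 0.217 at 4 h, 4.87 ± 0.243 at 6 h and 5.31 ± 0.276 at 8 h. That of the ppsdes MLACC line was 1.55 ± 0.135, 4.56 ± 1.23, 3.55 ± 0.444, 4.25 ± 0.392 and 3.64 ± 0.366. At 2 h, against its control, the wild-type line had 88 members more than 1 log2 unit higher in group means (6.24% of the 17372 nuclear genes at a mean of at least 1 CPM) and a median difference of 1.33, and the ppsdes line had 7 (1.38%) and a median of 0.04. The control libraries of 0, 2 and 8 h chose the members, so these differences carry no test. At 8 h, 138 members were more than 1 log2 unit above the mYFP line (21.8%, median 3.62) and 120 above the ppsdes control (11.7%, median 2.42). Summed mesophyll markers then stood at 5039 to 14719 CPM with MLACC and 30113 to 32687 CPM with mYFP. Epidermis markers stood at 398 to 420 CPM with mYFP and lower in every library with MLACC, down to 15.4 CPM. Guard cell markers were higher with MLACC, at 63.4 to 71.4 CPM against 56.5 to 62.2 CPM with mYFP. Vasculature markers stood at 445 to 493 CPM with MLACC and 511 to 553 CPM with mYFP. The part of these markers in the result was not tested. In ppsdes mesophyll markers stood at 24687 to 31923 CPM with MLACC and 31727 to 36718 CPM in the control, and epidermis markers at 216 to 272 CPM and 358 to 379 CPM. Guard cell markers stood there at 31.3 to 41.8 CPM with MLACC and 68.7 to 77.5 CPM in the control, and vasculature markers at 429 to 494 CPM and 354 to 414 CPM.

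At 4 h, 90 members were higher in the wild-type MLACC line than in the mYFP line and 3 were lower, against 21.4% and 17.6% of all genes tested. The median difference was 2.42 against 0.02, and 112 members (71.9% of all genes) had an unadjusted p under 0.05. At 6 h, 117 were higher and 0 lower (18.8% and 10.5% of all genes). The median was 4.20 against −0.02, and 135 members (67.9% of all genes) had an unadjusted p under 0.05. Since the rule required the controls to fall by 8 h, a low mYFP level at 6 h can follow in part from it. All genes were not chosen in this way. With the 5 libraries left out, 126 members were called at 4 h and 132 at 6 h. Without any 1 library 68 to 119 were called at 4 h and 99 to 114 at 6 h. Fitted on the libraries of the comparison alone, the count at 4 h was 34. The summed level of 4 mesophyll markers moved with the comparison, at 15635 to 22411 CPM with MLACC and 34839 to 35768 CPM with mYFP at 4 h, and 15731 to 22151 CPM against 33853 to 35976 CPM at 6 h. That of 4 epidermis markers stood at 59.4 to 214 CPM against 267 to 404 CPM at 4 h and 116 to 178 CPM against 190 to 372 CPM at 6 h. Guard cell markers stood at 43.4 to 49.0 CPM against 51.9 to 60.9 CPM at 4 h and 49.1 to 61.1 CPM against 49.1 to 60.5 CPM at 6 h. Vasculature markers stood at 267 to 481 CPM against 442 to 510 CPM and 390 to 453 CPM against 478 to 529 CPM at these times. Their part in the result was not tested.

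GPT2, a plastid glucose-phosphate translocator, differed most at 4 h. Its libraries stood at 345, 859 and 684 CPM with MLACC and 1.05, 1.5 and 3.05 CPM with mYFP, a difference of 8.58 ± 0.80 (adjusted p = 1.87e-08). LHT7, an amino acid transporter, stood at 234, 305 and 356 CPM against 0.956, 0.465 and 17.4 CPM (5.71 ± 0.99, adjusted p = 3.76e-05). AT2G39518, a CASP-like membrane protein, differed by 5.29 ± 1.03 (adjusted p = 0.000125) and PCR2, of the cadmium resistance family, by 5.15 ± 0.74 (adjusted p = 4.39e-06). BCS1, an ATPase of the outer mitochondrial membrane, stood at 304, 612 and 494 CPM against 2.87, 3.77 and 40.8 CPM (5.04 ± 0.83, adjusted p = 2.11e-05). In all 5 the libraries of both lines were apart, and no call was lost when any library was left out. The high mYFP value of LHT7 and BCS1 was that of replicate 3, which stands apart.

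At 6 h MC8 stood at 45.5, 68.8 and 37.4 CPM with MLACC and at 0.0884, 0 and 0.0911 CPM with mYFP, a difference of 9.50 ± 1.56 (adjusted p = 2.8e-05). LHT7 stood at 170, 240 and 120 CPM against 0.354, 0.273 and 0.228 CPM (9.16 ± 1.24, adjusted p = 2.53e-06). KOR2, an endoglucanase of the cell wall, differed by 8.87 ± 0.90 (adjusted p = 5.8e-08), the methyltransferase AT3G54150 by 8.77 ± 1.36 (adjusted p = 1.44e-05) and GPT2 by 8.71 ± 0.83 (adjusted p = 2.79e-08). In each of the 5 the libraries of the lines did not overlap. AT1G51820, which has the highest score, was 65.1, 13.1 and 66.6 CPM at 4 h with MLACC, within the range of the mYFP line (−0.05 ± 0.93, adjusted p = 0.967). At 6 h it was 8.03, 7.94 and 8.88 CPM against 1.15, 0.364 and 0.137 CPM (3.81 ± 1.20, adjusted p = 0.00888), a call that was lost without any 1 of the 6 libraries.

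The 3 members that were lower at 4 h were AT2G15020, AT4G21870 and AT3G09450. AT2G15020 stood at 18, 1.48 and 1.87 CPM with MLACC and 47.6, 31.8 and 27.1 CPM with mYFP (−2.23 ± 0.60, adjusted p = 0.00247). The groups did not overlap, and replicate 1 with MLACC was nearest to the mYFP line. Leaving out replicate 1 with mYFP, or 2 or 3 with MLACC, removed this call. AT4G21870 differed by −1.78 ± 0.57 (adjusted p = 0.00905), lost on leaving out replicate 1 or 3 with mYFP, or 2 or 3 with MLACC. AT3G09450 differed by −1.27 ± 0.41 (adjusted p = 0.0092), with overlapping libraries and a call lost in 4 of 6 fits with 1 library left out. AT2G15020 and AT3G09450 are also among the members whose libraries did not move with the rest within groups.

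In ppsdes the picture at 4 h was another one. With MLACC 3 members were higher than in the control and 1 was lower, against 2.08% and 0.141% of all genes tested, the median difference was −0.04 against −0.02, and 50 members (22.4% of all genes) had an unadjusted p under 0.05. Of all 150, 35 were more than 1 log2 unit above the control (4.04% of the 17372 nuclear genes at a mean of at least 1 CPM) and 32 more than 1 below (1.25%) in group means. The count was 20 without the 5 libraries (19 higher, 1 lower), 12 with DESeq2, 0 on the libraries of the comparison alone and 1 to 6 without any 1 library. It was 2 without replicate 3 of the control, 2 without replicate 1 and 2 without replicate 2 of the MLACC line, and 1 without replicate 3 of that line. The summed mesophyll markers stood at 33224 to 34970 CPM with MLACC and 35166 to 38529 CPM in the control. Epidermis markers stood at 331 to 348 CPM against 390 to 556 CPM, guard cell markers at 46.4 to 48.0 CPM against 59.6 to 66.1 CPM. Vasculature markers stood at 367 to 389 CPM against 397 to 478 CPM, and the part of these markers in the result was not tested.

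The 3 that were higher were JAZ1, BCS1 and GPT2. JAZ1 stood at 18.4, 29.9 and 35.6 CPM with MLACC and at 0.661, 2.98 and 0.962 CPM in the control (4.15 ± 0.70, adjusted p = 0.000679), and this call held with any library left out. BCS1 stood at 57.6, 80.3 and 132 CPM against 2.88, 6.00 and 1.16 CPM (4.69 ± 0.91, adjusted p = 0.00228), lost without replicate 1 or 3 of the control or replicate 3 of the MLACC line. GPT2 stood at 9.40, 9.56 and 14.1 CPM against 1.09, 0.770 and 0.241 CPM (3.92 ± 0.87, adjusted p = 0.00661), lost without any 1 of the 6 libraries. The 3 genes were also higher in wild type, where mYFP libraries served as the control. The kinase AT1G51850 was the member that was lower, at 0.723, 0.539 and 0.961 CPM against 2.50, 46.8 and 9.14 CPM (−4.77 ± 1.09, adjusted p = 0.00936), lost without replicate 2 or 3 of the control or any replicate of the MLACC line. The kinase AT1G51820 gave −3.68 ± 1.08 (adjusted p = 0.0394).

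At 6 h 91 members were higher in ppsdes with MLACC than in its control and 0 were lower, against 10.5% and 4.13% of all genes tested. The median difference was 3.1 against −0.02, and 125 members (50.4% of all genes) had an unadjusted p under 0.05. As in wild type, a low control level at 6 h can follow in part from the rule. The count was 119 without the 5 libraries, 45 and 58 without replicate 1 and replicate 3 of the control, and 55 without replicate 2 of the MLACC line. The calcium-binding protein AT3G01830 stood at 16.3, 29.1 and 15.9 CPM against 0.0469, 0.174 and 0.0514 CPM (7.47 ± 1.40, adjusted p = 0.00028). AT1G10340, an ankyrin repeat protein, stood at 17.9, 56.8 and 45.4 CPM against 0, 0.348 and 0.411 CPM (7.09 ± 1.31, adjusted p = 0.000191). AT2G39518 stood at 14.4, 18.3 and 6.88 CPM with MLACC and differed by 6.27 ± 1.42 (adjusted p = 0.00126). Every MLACC library was above every control library in these 3 genes. Summed mesophyll markers stood at 22710 to 33165 CPM against 34494 to 39751 CPM and epidermis markers at 211 to 283 CPM against 280 to 351 CPM. Guard cell markers stood at 24.7 to 42.1 CPM against 71.3 to 75.4 CPM. Vasculature markers were at 431 to 493 CPM with MLACC and 390 to 455 CPM in the control. The part of these markers in the result was not tested.

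**Figure D4:**
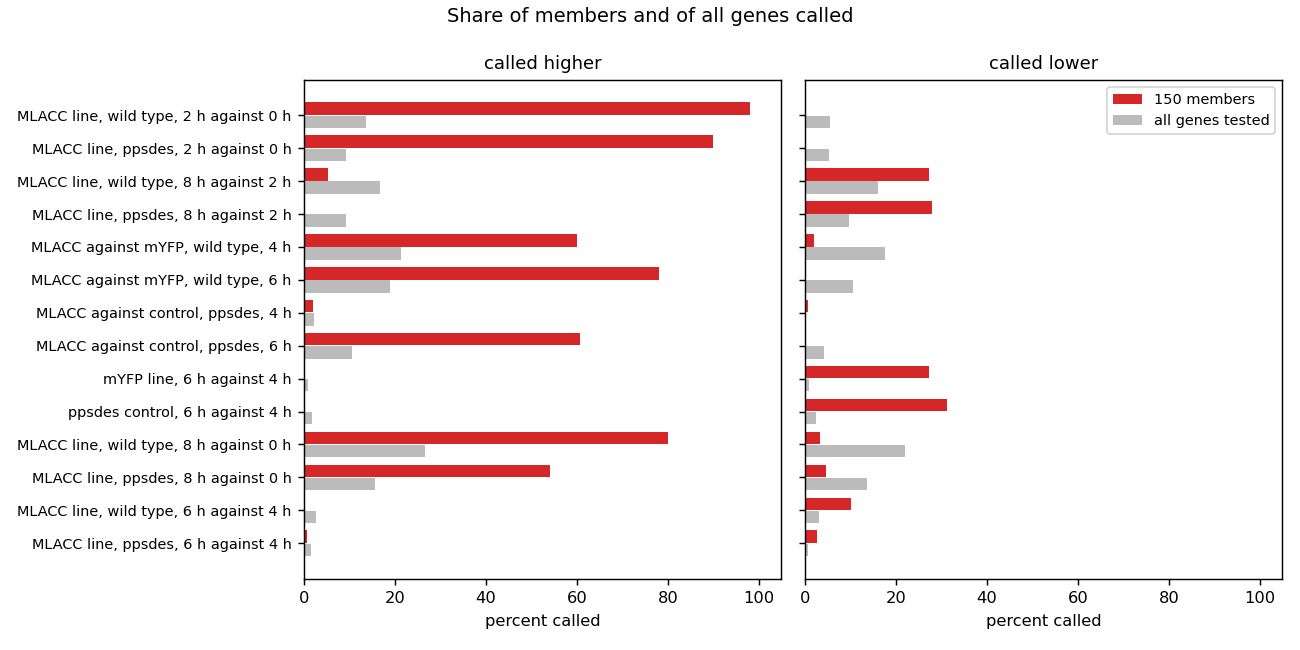
Percent of the 150 members (red) and of all genes tested (grey) called higher (left) and lower (right) in each comparison within a background. None of these contrasts a control library of 0, 2 or 8 h, although those libraries enter the shared estimate of the spread. The rule required a fall of the controls between 2 and 8 h. Their change from 4 to 6 h can follow in part from that. At 2 h against 0 h within the MLACC lines, 147 of 150 members are higher in wild type and 135 in ppsdes (13.6% and 9.21% of all genes). In both controls all 150 also rose by over 1 log2 unit in group means, as the rule required. This contrast is thus not one of MLACC against a control. At 4 h against the control, 90 are higher with MLACC in wild type and 3 in ppsdes (21.4% and 2.08%).

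After 2 h the group means of the MLACC lines took unlike courses. In the wild-type line 80 members had their highest group mean at 2 h, 51 at 4 h, 1 at 6 h and 18 at 8 h, and 118 had a higher mean at 8 h than at 6 h. In the ppsdes line 96 had it at 2 h, 1 at 4 h and 53 at 6 h, 126 were higher at 6 h than at 4 h, and 4 were higher at 8 h than at 6 h. By the test, 0 members rose and 15 fell from 4 to 6 h in wild type (2.62% and 3.12% of all genes), with a median of −1.43. In ppsdes 1 rose and 4 fell (1.55% and 0.614%), with a median of 0.79. The wild-type count was 67 without the 5 libraries. It was 23, 8 and 6 without replicates 1, 2 and 3 of 4 h and 6, 5 and 3 without replicates 1, 2 and 3 of 6 h. The ppsdes count was 15 without the 5 libraries, 1 and 2 without replicates 1 and 2 of 4 h, and 1 and 3 without replicates 2 and 3 of 6 h. The member that rose was OPT1, an oligopeptide transporter, from 8.00, 9.63 and 17.6 CPM to 58.5, 173 and 76.8 CPM (3.05 ± 0.64, adjusted p = 0.00384).

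At 8 h, against 0 h, 120 members were higher and 5 lower in the wild-type MLACC line (26.5% and 22% of all genes tested; member median 4.50 against 0.07). In the ppsdes MLACC line 81 were higher and 7 lower (15.5% and 13.6%; 2.91 against −0.01). Without the 5 libraries 132 and 113 members were called. From 0 to 8 h the summed mesophyll markers went from 42097 to 45162 CPM to 5039 to 14719 CPM in wild type with MLACC and from 42546 to 50441 CPM to 24687 to 31923 CPM in ppsdes with MLACC. In wild type epidermis markers stood at 469 to 525 CPM at 0 h and lower in every 8 h library, down to 15.4 CPM. In ppsdes they went from 461 to 521 CPM to 216 to 272 CPM. Guard cell markers went from 57.4 to 66.9 CPM to 63.4 to 71.4 CPM in wild type. In ppsdes they fell from 46.1 to 63.1 CPM to 31.3 to 41.8 CPM. Vasculature markers rose from 319 to 427 CPM to 445 to 493 CPM in wild type. In ppsdes they rose from 300 to 371 CPM to 429 to 494 CPM. The part of these markers in the result was not tested. At 8 h against 2 h, 8 members were higher and 41 lower in wild type (16.6% and 15.9% of all genes; median −1.01), and 0 were higher and 42 lower in ppsdes (9.19% and 9.72%; −1.34). Those counts were 77 and 79 without the 5 libraries. In ppsdes 26 were called without replicate 2 of 2 h, 24 and 22 without replicates 1 and 3 of 8 h, and 15 on the libraries of the comparison alone. PP2-A5 fell from 1057, 534 and 620 CPM at 2 h to 13.7, 4.79 and 5.41 CPM at 8 h in the wild-type MLACC line (−6.60 ± 1.02, adjusted p = 8.7e-06). BBX30, a B-box protein, fell from 7.13, 18.6 and 8.37 CPM to 0.172, 0.0511 and 0.0418 CPM in the ppsdes MLACC line (−7.0 ± 0.68, adjusted p = 2.07e-08). Both returned to or below their 0 h level.

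The 8 members that rose further from 2 to 8 h in the wild-type MLACC line included several enzymes. AT5G05600, a 2-oxoglutarate- and iron-dependent oxygenase, stood at 41.5, 54.3 and 19.4 CPM at 2 h and 471, 696 and 398 CPM at 8 h (3.73 ± 0.63, adjusted p = 2.48e-05). MDHAR, a monodehydroascorbate reductase that regenerates ascorbate, rose from 23.2, 10.7 and 14.2 CPM to 106, 238 and 260 CPM (3.60 ± 0.74, adjusted p = 0.0003). AT4G01870, a tolB-like protein, rose from 90.5, 57.1 and 59.4 CPM to 616, 1193 and 743 CPM (3.59 ± 0.60, adjusted p = 2.25e-05). In each, the lowest library of 8 h was above the highest of 2 h. KOR2 rose from 16.5, 9.07 and 7.35 CPM to 58.7, 113 and 73.4 CPM (2.85 ± 0.57, adjusted p = 0.00018). AT2G39518 rose from 23.2, 3.89 and 5.07 CPM to 145, 190 and 72.4 CPM (3.61 ± 0.94, adjusted p = 0.00214), a call lost without replicate 2 or 3 of 2 h.

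A few members fell below their 0 h level with MLACC, as they did in the controls. PRR9, a pseudo-response regulator of the circadian clock, stood at 8.78, 14 and 9.85 CPM at 0 h, 22.1, 27.5 and 34.0 CPM at 2 h and 2.6, 2.32 and 1.17 CPM at 8 h in the wild-type MLACC line. Its change from 0 to 8 h was −2.46 ± 0.29 (adjusted p = 1.05e-07) there and −3.48 ± 0.33 (adjusted p = 8.4e-09) in the ppsdes MLACC line. The mYFP line, at 8.5, 10.6 and 9.85 CPM at 0 h, 46.0, 50.1 and 42.6 CPM at 2 h and 1.09, 0.278 and 0.925 CPM at 8 h, showed the same shape, and its 3 libraries at 2 h were close together, unlike those of most members. AT3G09450 fell from 7.22, 7.83 and 5.97 CPM at 0 h to 0.155, 0.332 and 0.0975 CPM at 8 h in wild type (−5.20 ± 0.60, adjusted p = 6.55e-08). AT2G15020 fell from 8.03, 18.3 and 3.51 CPM to 0.155, 0 and 0.244 CPM (−6.23 ± 0.90, adjusted p = 1.83e-06). These members were thus higher at 2 h and lower at 8 h than at 0 h in all 4 lines by group mean.

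The changes of the MLACC lines were then compared between the backgrounds, in a fit of all 60 libraries with 19929 genes tested. The change from 0 to 2 h differed for 0 members in either direction by edgeR (0.868% of all genes lower and 0.346% higher in ppsdes), while 19 (15.4% of all genes) passed an unadjusted threshold of 0.05 and 2, both lower in ppsdes, were called by DESeq2. Without replicate 2 of the ppsdes MLACC line at 2 h 3 were lower in ppsdes. Leaving out its replicate 3 gave 2 that were higher, and leaving out the 5 libraries gave 1 higher and 2 lower. The MLACC effect against the control at 4 h was smaller in ppsdes for 41 members and larger for 0 (10.6% and 10.1% of all genes), with a median difference of −2.38. At 6 h it was smaller for 2 and larger for 0 (2.61% and 1.52%), with a median of −0.82. The change from 2 to 8 h was lower in ppsdes for 12 and higher for 0 (5.76% and 6.63%). Those 12 are 8% of the members, a share near that of all genes. These comparisons share MLACC libraries with those above.

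The count at 4 h was 56 without the 5 libraries and 84 without replicate 3 of the mYFP line. It was 24 without replicate 2 of that line, 23 without replicate 3 of the wild-type MLACC line, 15 without replicate 2 of the ppsdes control, and 24 and 23 without replicates 1 and 2 of the ppsdes MLACC line. On the libraries of the comparison alone it was 6. The count for 2 to 8 h was 23 without the 5 libraries and 7 without replicate 2 of 2 h or of 8 h of the wild-type MLACC line or replicate 3 of 8 h of the ppsdes MLACC line. The 2 of 6 h became 10 without the 5 libraries, 0 without replicate 2 of the ppsdes control, and 1 without any of replicate 2 and replicate 3 of mYFP, replicate 2 of wild type with MLACC and replicate 1 of ppsdes with MLACC. With the 5 libraries left out 1 of the 10 members at 6 h was higher in ppsdes.

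AT5G05600 differed in all 3 of these comparisons. In the ppsdes MLACC line it stood at 6.69, 3.1 and 14 CPM at 2 h, 0.255, 0.347 and 0.376 CPM at 4 h, 1.29, 0.142 and 0.303 CPM at 6 h and 0.431, 0.409 and 0.501 CPM at 8 h, where the wild-type MLACC line stood at 471, 696 and 398 CPM. The difference was −7.88 ± 0.94 for 2 to 8 h (adjusted p = 6.24e-08), −6.72 ± 1.01 for the effect at 4 h (adjusted p = 3.39e-06) and −4.98 ± 1.12 at 6 h (adjusted p = 0.00201), the last lost without replicate 2 of the ppsdes control. MDHAR stood at 1.57, 6.07 and 2.47 CPM at 2 h and 0.646, 1.02 and 0.752 CPM at 8 h in ppsdes with MLACC, and its 2 to 8 h change differed by −5.70 ± 1.01 (adjusted p = 5.04e-05). Both genes rose after 2 h in wild type and had no later rise in ppsdes.

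At 4 h AT2G39518 stood at 149, 75.6 and 166 CPM in the wild-type MLACC line and 1.02, 0.616 and 3.09 CPM in the ppsdes MLACC line, with 1.43, 0.310 and 9.14 CPM in the mYFP line and 0.567, 15.6 and 1.92 CPM in the ppsdes control. The effects differed by −7.29 ± 1.47 (adjusted p = 0.000194), a call that no left-out library removed. LHT7 stood at 0.851, 0.925 and 1.5 CPM in the ppsdes MLACC line and differed by −6.40 ± 1.43 (adjusted p = 0.000563), lost without replicate 2 of the ppsdes control. WRKY26, a WRKY relative of WRKY33, differed by −4.00 ± 0.88 (adjusted p = 0.000503), lost without the same library. CKX4, a cytokinin oxidase that breaks down cytokinin, stood at 135, 145 and 94.6 CPM in wild type and 23.4, 41.8 and 34.1 CPM in ppsdes with MLACC at 6 h, and its effect differed by −2.83 ± 0.68 (adjusted p = 0.00363). This call was lost without replicate 2 or 3 of the mYFP line, replicate 2 of the wild-type MLACC line, replicate 2 of the ppsdes control or replicate 1 of the ppsdes MLACC line.

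**Figure D5:**
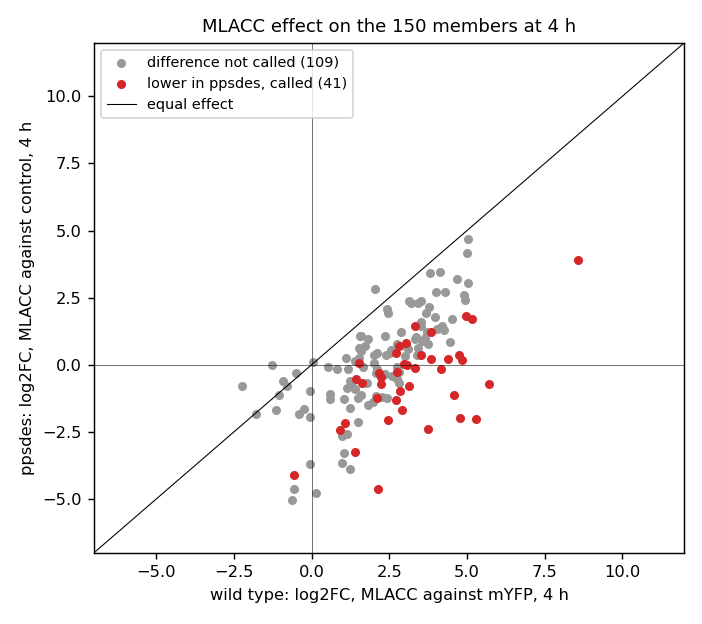
Log2 fold change with MLACC against the control at 4 h in ppsdes (vertical) and in wild type (horizontal) for the 150 members, from the separate fits of each background. The 41 members whose effect was lower in ppsdes by the test are red and lie below the diagonal of equal effects.

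Among 16 WRKY genes that are known for stress and immune responses, 7 of which are members, 13 were higher with MLACC at 4 h and 14 at 6 h of 16 tested in wild type, and 2 and 10 of 15 tested in ppsdes. Of all genes, 21.4% and 18.8% were higher in wild type at these times and 2.08% and 10.5% in ppsdes. No gene of the list was lower in these 4 comparisons. The median difference at 6 h was 5.17 in wild type and 3.69 in ppsdes. The effect at 4 h was smaller in ppsdes for 6 and larger for 0 (10.6% and 10.1% of all genes). WRKY33 stood at 443, 669 and 774 CPM with MLACC at 4 h and 21.3, 7.90 and 165 CPM with mYFP (3.43 ± 0.88, adjusted p = 0.00168), lost without replicate 1 of the mYFP line. At 6 h it stood at 242, 286 and 173 CPM against 11.2, 5.42 and 4.97 CPM (4.94 ± 0.96, adjusted p = 0.000161). In ppsdes at 6 h it stood at 101, 227 and 156 CPM against 1.74, 14.5 and 6.53 CPM (4.21 ± 1.04, adjusted p = 0.00249), lost without replicate 1 or 3 of the control. WRKY40, a repressor of immune genes, differed by 7.63 ± 1.36 at 6 h in wild type (adjusted p = 6.98e-05), WRKY28 by 6.16 ± 0.89 (adjusted p = 5.54e-06), WRKY48 by 5.18 ± 0.89 (adjusted p = 4.57e-05), WRKY6 by 4.97 ± 0.81 (adjusted p = 2.3e-05), WRKY26 by 4.11 ± 0.66 (adjusted p = 2.2e-05) and WRKY53 by 3.41 ± 0.70 (adjusted p = 0.000288). Of the 3 WRKY members outside that list, WRKY30 differed by 4.21 ± 0.87 (adjusted p = 0.000303) in the same comparison, and WRKY47 (1.31 ± 0.52, adjusted p = 0.0306) and WRKY7 (0.35 ± 0.52, adjusted p = 0.563) did not pass the test. WRKY47 passed it without the 5 libraries (adjusted p = 0.00705) and on the libraries of the comparison alone (adjusted p = 0.00071).

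Of 24 genes of jasmonate synthesis and signalling, of which JAZ1 and LOX4 are members, 20 of 23 tested were higher with MLACC at 4 h and 20 at 6 h in wild type (21.4% and 18.8% of all genes), and none was lower. In ppsdes, which lacks the synthesis enzyme DDE2, 4 of 20 were higher at 4 h (2.08% of all genes), and at 6 h 7 were higher and 1 lower (10.5% and 4.13%). The median at 6 h was 3.52 in wild type and 0.74 in ppsdes. The effect was smaller in ppsdes for 14 genes at 4 h and 8 at 6 h (10.6% and 2.61% of all genes) and larger for none. JAZ1 stood at 280, 402 and 244 CPM with MLACC at 6 h in wild type and 10.3, 8.38 and 6.61 CPM with mYFP (5.12 ± 0.64, adjusted p = 9.57e-07), and at 26.3, 57.5 and 33.6 CPM against 0.375, 1.05 and 0.771 CPM in ppsdes (5.52 ± 0.77, adjusted p = 1.14e-05). LOX4, a lipoxygenase of jasmonate synthesis, differed at 6 h by 6.04 ± 0.93 in wild type (adjusted p = 1.23e-05) and by 2.47 ± 0.69 in ppsdes (adjusted p = 0.00626), the latter lost in 5 of 6 fits with 1 library left out.

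Of 18 zinc finger, ERF and MYB factors of abiotic and wound responses, of which ZAT6 and ZAT11 are members, 12 of 17 tested were higher with MLACC at 4 h and 14 at 6 h in wild type (21.4% and 18.8% of all genes), and 3 and 8 of 16 in ppsdes (2.08% and 10.5%), with none lower. The median at 6 h was 4.66 and 3.67. ZAT6 stood at 28.8, 42.0 and 22.9 CPM with MLACC and 1.24, 1.64 and 0.638 CPM with mYFP at 6 h (4.66 ± 0.82, adjusted p = 5.82e-05). BIK1, a receptor-like cytoplasmic kinase that relays signals from pattern receptors, rose in the wild-type MLACC line from 5.47, 4.35 and 6.52 CPM at 0 h to 238, 149 and 144 CPM at 2 h (5.01 ± 0.62, adjusted p = 1.11e-06). GH3.3 stood at 12, 20.5 and 34.7 CPM at 8 h in the wild-type MLACC line and 0.690, 1.12 and 0.292 CPM in the ppsdes MLACC line, and its change from 2 to 8 h differed by −4.41 ± 0.95 (adjusted p = 0.000536). In wild type with MLACC its group mean was highest at 8 h, after 5.69, 6.65 and 8.23 CPM at 2 h and 14.4, 26.1 and 10.7 CPM at 4 h.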

How the data were processed

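Poly(A) RNA was sequenced from infiltrated leaves of 60 samples, 3 for each of 4 lines at 5 times, which the design text calls biological replicates. The deposited values were raw counts per gene, in 1 table of 30 libraries for each background. Per the labels, the authors checked reads with FastQC 0.11.2, aligned them to TAIR10 with TopHat2 2.0.10 and counted them with HTSeq (version and settings: not given in the sources used here). Since the library kit does not mark strand, overlapping and antisense genes cannot be told apart. The 5 summary lines of each table were left out of library sizes and tests. Of the reads on genes and in the 5 summary lines together, no_feature took 1.24 to 2.26%, ambiguous 0.36 to 0.67% and not unique 6.46 to 14.19%.

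CPM were counts divided by the column sum of the gene rows. For tests, each table was fitted with edgeR 4.0.16 (limma 3.58.1, R 4.3.3): filterByExpr, TMM scaling, group means over all 30 libraries, quasi-likelihood F test, Benjamini-Hochberg adjustment over all genes tested, and a call at an adjusted p under 0.01 with a log2 fold change over 1. All 150 members passed the filter in every fit. Differences between backgrounds came from 1 fit of 60 libraries. The backgrounds were deposited as separate tables, so background and table cannot be told apart, and only changes within a background were tested between them; levels set side by side across backgrounds come from separate tables and carry no test. The 4 comparisons of 8 h with 0 h and of 6 h with 4 h in the MLACC lines were added after values were seen. Fits with a library left out kept the genes and the dispersion trend of the full fit. Alternatives were DESeq2 1.42.0 (its size factors, and its test), no filter, the replicate number as a block, only the libraries of a comparison, each library left out, and, chosen after seeing the data, leaving out 5 libraries. The fit was tested on simulated data. Other steps used Python 3.11.15, numpy 2.4.6 and pandas 2.3.3.

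The members and the gene lists were chosen with earlier results of these data known. Named are the 12 highest scores, the 5 genes on either side of the edge of the rule, members of the gene lists, and per comparison up to 5 called members in each direction with the largest change among those whose libraries do not overlap (for differences between backgrounds, with the largest change); the members least correlated with the rest, those not called or called lower and those with a lower bound were named after their values were seen. The numbers 1 to 3 that groups share were checked as pairs over 15943 genes. Of 66 correlations of deviations between same-numbered samples 36 were over 0.1 (range −0.39 to 0.70), and, among the comparisons tested, all 3 were over 0.1 in 2, ppsdes MLACC against control at 6 h and ppsdes control at 6 h against 4 h. Promoters were read from RefSeq TAIR10.1, whose nuclear sequence was taken only for this purpose and for gene order. The sequence of 1 further promoter is not reported here.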

Additional observations from a re-analysis of the deposited data

Results flagged for a closer look

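The following differences between the backgrounds passed the test of the difference itself, edgeR's quasi-likelihood test with Benjamini-Hochberg adjustment over all genes. The MLACC effect at 4 h was lower in ppsdes for 41 members (27.3%, against 10.6% of all genes) and that at 6 h for 2 (1.33%, against 2.61%). The change of the MLACC lines from 2 to 8 h was lower in ppsdes for 12 (8%, against 5.76%), a share near that of all genes. Of the 150 members, 2 is a smaller share than that of all genes at 6 h.

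For the change from 2 to 8 h, AT5G05600 differed by −7.88 ± 0.94 on the log2 scale, AT2G43140, a basic helix-loop-helix factor, by −6.43 ± 1.25 (adjusted p = 0.000155), MDHAR by −5.70 ± 1.01, GH3.3 by −4.41 ± 0.95 and KOR2 by −4.29 ± 0.82. AT2G43140 stood at 7.51, 3.41 and 3.62 CPM at 2 h and 11.4, 16.6 and 12.9 CPM at 8 h in the wild-type MLACC line. In the ppsdes MLACC line it stood at 2.97, 3.27 and 7.01 CPM at 2 h and 0.0431, 0.307 and 0.0836 CPM at 8 h. KOR2 stood at 3.85, 10.6 and 10.8 CPM and 3.36, 3.94 and 2.26 CPM at these times in ppsdes. The direction from 2 to 8 h was thus upward in wild type and downward in ppsdes for both genes by group mean.

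For the effect at 4 h, AT5G48430, an aspartyl protease, differed by −8.97 ± 2.49 (adjusted p = 0.0049), AT2G39518 by −7.29 ± 1.47, AT5G39580 by −6.79 ± 1.90 (adjusted p = 0.00427), AT5G05600 by −6.72 ± 1.01 and LHT7 by −6.40 ± 1.43. The libraries of AT5G48430 and AT5G39580 spread widely. AT5G48430 stood at 40.2, 0.495 and 22.8 CPM in the wild-type MLACC line, 6.64, 0.516 and 22.5 CPM with mYFP, 0, 37.0 and 1.28 CPM in the ppsdes control and 0, 0.0771 and 0.0836 CPM in the ppsdes MLACC line. AT5G39580 stood at 169, 53.3 and 186 CPM, 6.88, 0.465 and 92.9 CPM, 0.945, 92.7 and 1.96 CPM and 0.510, 0.231 and 3.34 CPM in the same order. Both calls were lost without replicate 1 or 2 of the mYFP line, replicate 3 of the wild-type MLACC line, replicate 2 of the ppsdes control or replicate 1 or 2 of the ppsdes MLACC line, and that of AT5G48430 also without replicate 3 of the last.

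For the effect at 6 h, AT5G05600 differed by −4.98 ± 1.12 and CKX4 by −2.83 ± 0.68.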

How the results depend on the processing

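The counts of members called changed more than their direction. For the named genes 4349 repeated fits kept the side of the threshold and 728 lost the call, 532 of these when 1 library was left out and 142 when only the libraries of the comparison were fitted. No called change turned its sign. The difference of AT1G51820 at 4 h in wild type, −0.05 and not called, was 0.03 with the replicate block, 1.54 without the 5 libraries, 1.58 without replicate 3 of mYFP, 0.39 without replicate 2 of MLACC and −0.61 without replicate 2 of mYFP. In ppsdes it was called by DESeq2 (−3.7, adjusted p = 0.00634). Of 406 calls, 261 held in every fit with 1 library left out. The cause of the moves was not tested. Shares of all genes called are given only for the edgeR fits with all libraries, so the moved counts are not set against all genes. Counts of comparisons not named here stayed within 1.5 times under that setting.

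Without the 5 libraries that stand apart, 77 members were called from 2 to 8 h in the wild-type MLACC line and 79 in the ppsdes one, 20 for MLACC at 4 h in ppsdes, 18 in the ppsdes control from 4 to 6 h, 67 and 15 in the wild-type and ppsdes MLACC lines from 4 to 6 h, and 3, 23 and 10 for the background differences of the 0 to 2 h change, the 2 to 8 h change and the effect at 6 h. With only the libraries of the comparison, 24 were called for ppsdes MLACC from 0 to 2 h, 15 from 2 to 8 h, 34 and 0 for MLACC at 4 h in wild type and ppsdes, 6 and 3 for the mYFP line and ppsdes control from 4 to 6 h, 0 for wild-type MLACC from 4 to 6 h, and 5, 6 and 8 for the background differences of the 2 to 8 h change, 4 h and 6 h. DESeq2 called 12 for MLACC at 4 h in ppsdes, 115 and 71 for the mYFP line and ppsdes control from 4 to 6 h, 28 for wild-type MLACC from 4 to 6 h, and 2 and 10 for the background differences of the 0 to 2 h change and 6 h. Without the filter 9 were called for wild-type MLACC from 4 to 6 h.

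With 1 library left out the counts ranged from 22 to 54 for ppsdes MLACC from 2 to 8 h, 1 to 6 for MLACC at 4 h and 45 to 86 at 6 h in ppsdes, 1 to 77 for the mYFP line and 7 to 54 for the ppsdes control from 4 to 6 h, 3 to 23 and 1 to 6 for wild-type and ppsdes MLACC from 4 to 6 h, and 0 to 3, 7 to 18, 15 to 84 and 0 to 3 for the background differences of the 0 to 2 h change, the 2 to 8 h change, 4 h and 6 h.

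With the replicate number as a block, 10 members were called for MLACC at 4 h in ppsdes. There the correlations of same-numbered samples were mixed, at 0.41, −0.21 and 0.02. In the 2 tested comparisons where all 3 correlations were over 0.1 the block gave 110 and 56, within 1.5 times of 91 and 47.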
